A study of Mus musculus with 6 samples.

Results

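Cells take up amino acids through transporter proteins of the plasma membrane, and 9 of their genes were followed here in mouse bone-marrow-derived macrophages (BMDM), phagocytes grown in culture from marrow precursors. The genes are Slc3a2, Slc7a5, Slc7a11, Slc7a7, Slc7a1, Slc7a2, Slc38a2, Slc38a1 and Slc1a5. They were taken by gene symbol from a table of 55401 genes. Levels are given as FPKM, fragments per kilobase of transcript scaled to the mapped fragments of the library, which may be compared between genes because they are per length. All 9 genes were among the 12084 tested, the genes that reached 0.5 FPKM in 3 or more of the 6 libraries.

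The 9 genes serve a few linked tasks. Slc3a2 encodes the heavy chain 4F2hc (CD98), a membrane glycoprotein that carries the light chains of the Slc7 family to the cell surface and is joined to them by a disulfide bond. Among the light chains, Slc7a11 (xCT) exchanges extracellular cystine for glutamate and so feeds glutathione synthesis, Slc7a5 (LAT1) exchanges large neutral amino acids such as leucine, and Slc7a7 (y+LAT1) exports arginine and lysine in exchange for neutral amino acids and sodium. Slc7a1 (CAT1) and Slc7a2 (CAT2) take up arginine and lysine without a heavy chain, Slc38a1 (SNAT1) and Slc38a2 (SNAT2) take up glutamine and alanine with sodium, and Slc1a5 (ASCT2) exchanges small neutral amino acids including glutamine. In macrophages, arginine is the substrate of both nitric oxide synthase and arginase, and cystine uptake is a known step of the response to oxidants. Several of these genes are known targets of the transcription factors ATF4, which acts when amino acids are short, and NRF2, which acts under oxidative stress.

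Total RNA depleted of ribosomal RNA was sequenced from 6 samples after 7 days of growth in medium with L929-conditioned supernatant, a source of the macrophage growth factor M-CSF. The L-OHP+FUC group (n = 3) had 12 h of fucoidan (a sulfated polysaccharide made by brown seaweeds) at 250 µg/ml, followed by L-OHP at 5 µM for 12 h. The L-OHP group (n = 3) had L-OHP at 5 µM for 12 h alone; L-OHP is the usual abbreviation of oxaliplatin, a platinum chemotherapy drug. Both groups therefore received the drug, and BMDM without L-OHP were not analysed here. No matching 12 h step before the drug is listed for the L-OHP group. The groups may thus also differ in handling or in time before harvest, and the effect of this was not tested. The labels give no strain, age or sex of the mice, and nothing states that the 3 samples of a group came from separate animals, so p-values measure spread among these samples only, and that spread may be technical.

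The implied depth was 15.7 to 18.6 M (mega) fragments per library. The number of genes at 1 FPKM or more was 9841 to 10188 in L-OHP+FUC and 10711 to 10813 in L-OHP, without overlap. All 12 macrophage markers were at 11.3 FPKM or more in every library, with a summed level of 13893 to 14853 FPKM in L-OHP+FUC and 12914 to 18229 FPKM in L-OHP. The 12 neutrophil markers summed to 67.2 to 73.1 FPKM in L-OHP+FUC and 65.8 to 72.6 FPKM in L-OHP, with Ly6g, Retnlg and Cxcr2 listed at 0 throughout. Of these 12, 8 were under 1 FPKM in every library, so most of the sum came from the others. B cell markers summed to 10.5 to 13.7 FPKM in L-OHP+FUC and 17.4 to 26.1 FPKM in L-OHP, and T cell markers to 2.36 to 2.76 FPKM in L-OHP+FUC and 3.93 to 5.79 FPKM in L-OHP, with Cd3e, Cd3d, Cd3g and Trbc2 listed at 0 throughout. Of the 6 B cell markers 4, and of the 8 T cell markers 7, were under 1 FPKM in every library. In the test given below, 2 of the 12 macrophage markers were called higher and 3 lower. Of the 4 neutrophil markers tested, 1 was called higher, and 2 after GC and length correction. The 1 T cell marker and 2 B cell markers tested were called lower. Beside them, 7.67% of all genes tested were called higher and 19.3% lower. Left-out libraries gave 0 to 3 higher macrophage markers and 0 to 2 lower B cell markers. The correlation of a library's deviation from the gene means with GC content, across 12074 genes, was 0.41, 0.28 and 0.00 in L-OHP+FUC replicates 1 to 3 and -0.30, -0.00 and -0.38 in L-OHP replicates 1 to 3. Their part in the results below was not tested. Values after correction for GC content and transcript length are given where the call of a named gene changes. They are also given where the called value of a named gene moves by over 1.5 times. In these bulk samples, fewer cells of a type and less RNA per cell cannot be told apart.

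The heavy chain gene and 3 transporter genes rose in L-OHP+FUC relative to L-OHP, and 1 sodium-coupled transporter gene fell. Slc3a2, Slc7a5, Slc7a11 and Slc7a1 were 0.41 to 0.69 higher on the log2(FPKM + 1) scale, and Slc38a2 was 0.66 lower. The other 4 genes, Slc7a7, Slc7a2, Slc38a1 and Slc1a5, did not pass the test. The test was limma across all 12084 genes with Benjamini-Hochberg adjustment at 0.05. Of those genes, 7.67% were called higher and 19.3% lower, or 27% in either direction, against 4 higher and 1 lower of the 9. The median log2 fold change of the 9 genes was 0.17, beside -0.10 for all genes tested. The libraries of the groups did not overlap for the same 5 genes, beside 16.1% of all genes that were higher and 30.9% that were lower without overlap. After correction for GC content and length, 6 of the 9 were called higher and 1 lower, beside 11.5% and 11.9% of all genes, with Slc7a2 and Slc38a1 added to the higher ones, both of which missed the threshold when the replicate number was also in the fit (adjusted p = 0.0740 and 0.0781). Slc3a2 and Slc38a2 kept their calls with any 1 library left out, whereas only these 2 were called once any library other than L-OHP replicate 2 was left out.

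**Figure D1:**
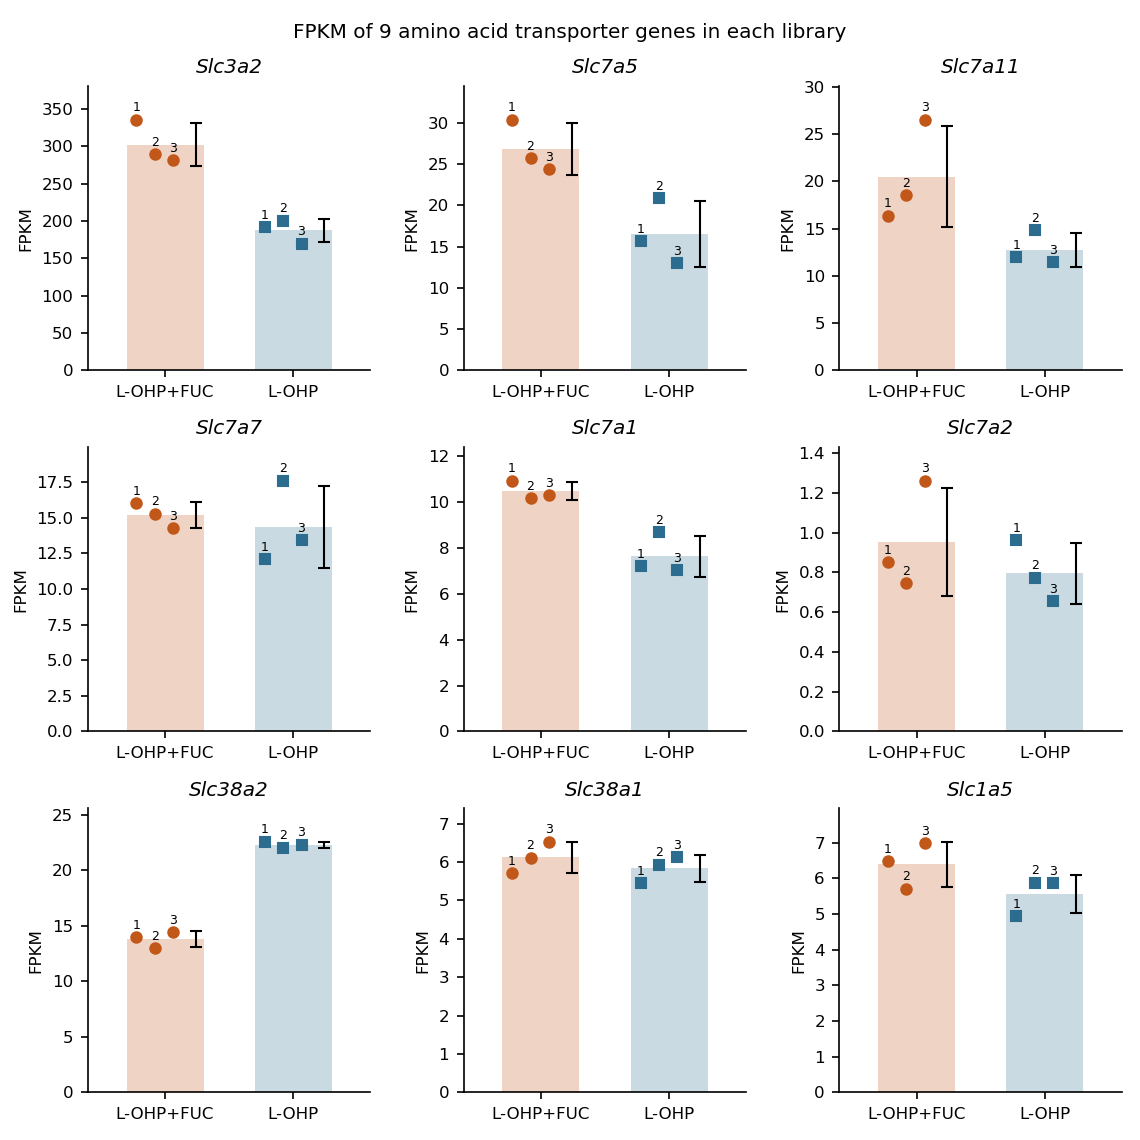
FPKM (y axis, from 0) of the 9 transporter genes in the 3 L-OHP+FUC libraries (circles) and the 3 L-OHP libraries (squares), numbered by replicate, with bars for the mean and whiskers for the SD. Slc3a2, Slc7a5, Slc7a11 and Slc7a1 lie higher in all L-OHP+FUC libraries, Slc38a2 lies lower in all of them, and the groups of the other 4 genes overlap.

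The DNA just before the start sites is shown for the called genes that the promoter table holds, since ATF4 and NRF2 are known regulators of several of them. Windows ran from 250 bases before to 50 bases after a RefSeq start (GRCm38.p6), and 5 of the 9 genes had at least 1, or 10 windows in all. They were searched on both strands for TGATGNAA, the amino acid response element through which ATF4 acts, and for TGACNNNGC, the antioxidant response element through which NRF2 acts. Of 32851 mouse windows of this length, 3.97% held the first and 12.4% the second. The 250 upstream bases follow, 5′ to 3′ on the gene's own strand, with matches to either motif in capitals.
Slc7a11, chr3:50443614-50443863, minus strand: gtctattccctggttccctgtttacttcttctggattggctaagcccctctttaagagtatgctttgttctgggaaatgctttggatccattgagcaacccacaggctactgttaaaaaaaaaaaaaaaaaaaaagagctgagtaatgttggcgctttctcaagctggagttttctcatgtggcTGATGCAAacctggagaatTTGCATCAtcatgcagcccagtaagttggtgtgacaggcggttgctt
Slc3a2, chr19:8713898-8714147, minus strand: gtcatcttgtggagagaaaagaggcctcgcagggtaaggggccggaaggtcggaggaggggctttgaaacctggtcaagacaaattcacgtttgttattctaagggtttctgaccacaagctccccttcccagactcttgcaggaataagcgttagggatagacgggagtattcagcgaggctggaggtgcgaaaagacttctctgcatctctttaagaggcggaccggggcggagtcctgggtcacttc
Slc7a1, chr5:148399905-148400154, minus strand: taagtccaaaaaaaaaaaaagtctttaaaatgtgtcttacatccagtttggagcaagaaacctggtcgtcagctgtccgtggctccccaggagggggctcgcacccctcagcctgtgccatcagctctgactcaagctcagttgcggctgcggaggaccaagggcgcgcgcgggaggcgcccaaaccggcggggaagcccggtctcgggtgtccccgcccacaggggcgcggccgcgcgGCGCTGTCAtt
Slc38a2, chr15:96699729-96699978, minus strand: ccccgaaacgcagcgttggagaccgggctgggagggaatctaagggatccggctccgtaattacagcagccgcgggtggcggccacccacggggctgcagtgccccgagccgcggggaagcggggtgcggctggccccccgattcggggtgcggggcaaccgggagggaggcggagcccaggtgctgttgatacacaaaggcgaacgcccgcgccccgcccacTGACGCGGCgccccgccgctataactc

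The Slc7a11 window held the amino acid response letters on both strands, as TGATGCAA starting 66 bases before the start and as TTGCATCA starting 47 bases before it. Slc7a1 held 1 antioxidant response match, GCGCTGTCA on the opposite strand 11 bases before its start, and its second window held none. Slc38a2, which fell, held 1 antioxidant response match, TGACGCGGC, 27 bases before its start. Slc3a2 held neither motif in this window. The window lies inside the gene span given below (8706882 to 8723369, minus strand), and the bases before the 8723369 end were not searched. Slc7a7, which did not pass the test, has 5 windows, and 2 that overlap each other held the amino acid response letters. They were TGATGAAA 141 bases and TGATGCAA 1 base before 1 start, and TGATGCAA 243 bases before another. The 2 TGATGCAA matches are the same site, seen from 2 starts. A match is a run of letters and not a measured binding site, and no match says only that these letters are not in this window.

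Slc3a2 (ENSMUSG00000010095, chromosome 19, 8706882 to 8723369, minus strand in GRCm38) was the most abundant of the 9 genes in every library. In replicate order it had 336, 289 and 282 FPKM in L-OHP+FUC, against 192, 200.3 and 169.7 FPKM in L-OHP. The lowest L-OHP+FUC library was above the highest L-OHP library. The mean was 302 ± 29.2 FPKM in L-OHP+FUC and 187 ± 15.8 FPKM in L-OHP (SD, n = 3 each), a log2 fold change of 0.69 (SE 0.11, 95% interval 0.41 to 0.96, adjusted p = 0.0103). The call held with each library left out in turn, at an adjusted p of 0.0129 to 0.0438. Slc3a2 made up 75.0% ± 2.01 of the summed FPKM of the 9 genes in L-OHP+FUC and 68.6% ± 1.55 in L-OHP.

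Slc7a5 (ENSMUSG00000040010, chromosome 8, 121881150 to 121907694, minus strand), the leucine exchanger, had 30.4, 25.7 and 24.4 FPKM in L-OHP+FUC, against 15.7, 20.9 and 13.0 FPKM in L-OHP. All L-OHP+FUC libraries were above all L-OHP libraries, of which replicate 2 lay nearest to them. The mean was 26.8 ± 3.14 FPKM in L-OHP+FUC and 16.5 ± 4.02 FPKM in L-OHP, a log2 fold change of 0.69 (SE 0.17, 95% interval 0.27 to 1.10, adjusted p = 0.0306). The call rested on the full set: it held without L-OHP replicate 2 and was lost with any other single library left out, over a range of adjusted p from 0.0124 to 0.102. Slc7a5 lies within Gm20388 of the opposite strand, which was listed at 0.

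Slc7a11 (ENSMUSG00000027737, chromosome 3, 49892526 to 50443614, minus strand), the cystine importer, had 16.4, 18.5 and 26.5 FPKM in L-OHP+FUC, against 12.0, 14.8 and 11.5 FPKM in L-OHP. Replicate 3 was the highest L-OHP+FUC library, and replicates 1 and 2 lay closer to L-OHP replicate 2 than to it. The mean was 20.5 ± 5.35 FPKM in L-OHP+FUC and 12.7 ± 1.81 FPKM in L-OHP, a log2 fold change of 0.62 (SE 0.19, 95% interval 0.18 to 1.07, adjusted p = 0.0484). This was the weakest of the 5 calls by adjusted p: it held without L-OHP replicate 2 and was lost with any other single library left out (adjusted p 0.0424 to 0.128). Its GC content was 40.7%, the lowest of the 9 genes, and after correction for GC content and length its values were 22.1, 22.9 and 27.2 FPKM in L-OHP+FUC and 10.2, 12.9 and 8.61 FPKM in L-OHP, a log2 fold change of 1.13 (SE 0.15, adjusted p = 0.0070).

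Slc7a7 (ENSMUSG00000000958, chromosome 14, 54369442 to 54417780, minus strand), the exporter of arginine and lysine, had 16.0, 15.3 and 14.2 FPKM in L-OHP+FUC, against 12.1, 17.6 and 13.4 FPKM in L-OHP. The L-OHP libraries spanned the whole L-OHP+FUC range. The log2 fold change was 0.09 (SE 0.14, 95% interval -0.24 to 0.42, adjusted p = 0.664), so a difference of up to that size in either direction was not resolved. Slc7a7 overlaps Oxa1l on the opposite strand, which averaged 10.1 FPKM, and whether the counting used strand is not given in the sources used here, so reads of the shared stretch cannot be assigned.

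The light chains were also summed, because they share Slc3a2 as their partner. Outside the 9 genes, Slc7a8 (LAT2), another exchanger of neutral amino acids, had a mean of 45.0 ± 1.07 FPKM in L-OHP+FUC and 34.0 ± 6.34 FPKM in L-OHP (log2 fold change 0.41, adjusted p = 0.0672) and was the most abundant light chain. Slc7a6 (y+LAT2) had 4.38 ± 0.625 FPKM in L-OHP+FUC and 4.0 ± 0.377 FPKM in L-OHP, and Slc7a10 was listed at 0 in all 6 libraries. The summed level of Slc7a5, Slc7a6, Slc7a7, Slc7a8, Slc7a10 and Slc7a11 was 113, 109 and 114 FPKM in L-OHP+FUC, against 78.5, 97.2 and 69.2 FPKM in L-OHP. All L-OHP+FUC sums were above all L-OHP sums.

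Slc3a2 exceeded the light chains together in every library. Its ratio to their sum was 2.98, 2.65 and 2.47 in L-OHP+FUC, against 2.45, 2.06 and 2.45 in L-OHP, a log2 difference of 0.22 with p = 0.1 in an exact two-sided permutation test, the smallest p that 3 libraries against 3 allow. The lowest L-OHP+FUC ratio was close to the highest L-OHP one, and the log2 difference was 0.14 without L-OHP replicate 2 and 0.15 without L-OHP+FUC replicate 1. After quantile normalization the difference was 0.09 (exact p = 0.5), and after GC and length correction it was also 0.09 (exact p = 0.6). With only the light chains among the 9 genes in the sum, the groups overlapped and the log2 difference was 0.15 (exact p = 0.4). Slc7a11 relative to Slc3a2 was 0.0488, 0.0640 and 0.0941 in L-OHP+FUC, against 0.0622, 0.0740 and 0.0676 in L-OHP. The L-OHP+FUC ratios lay on both sides of the L-OHP ones, with a log2 difference of -0.03 (exact p = 0.9), whereas after GC and length correction the difference was 0.59 (exact p = 0.1). The 9 genes together summed to 436, 385 and 386 FPKM in L-OHP+FUC, against 273, 297 and 249.6 FPKM in L-OHP, a log2 difference of 0.56 (exact p = 0.1), most of it Slc3a2.

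**Figure D2:**
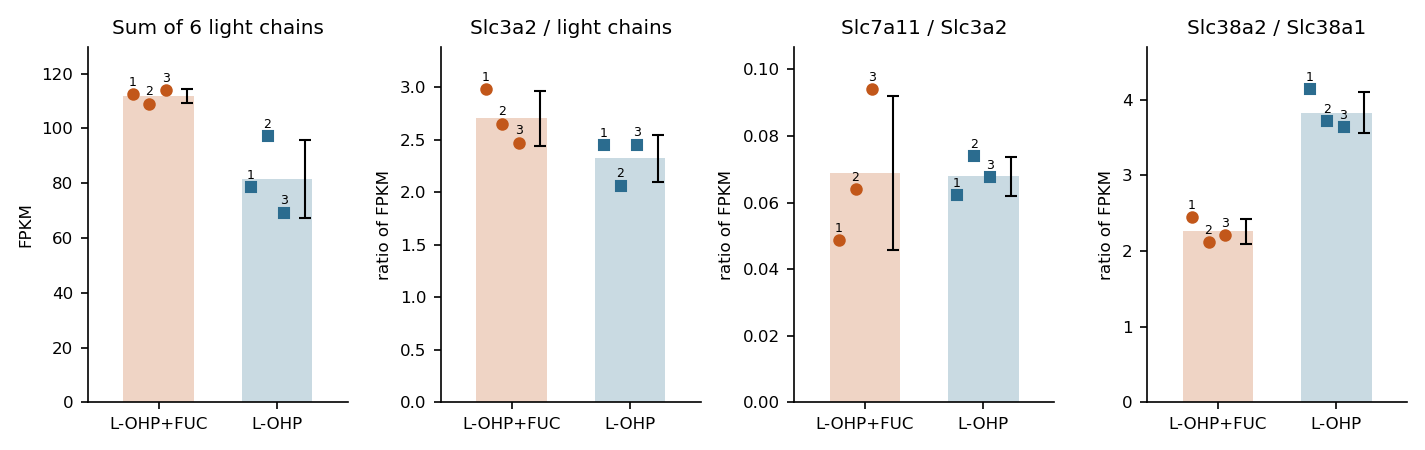
Summed FPKM of 6 light chain genes, and ratios of FPKM between transporter genes (y axes, from 0), in the 3 L-OHP+FUC libraries (circles) and the 3 L-OHP libraries (squares), numbered by replicate, with bars for the mean and whiskers for the SD. The light chain sums and the Slc3a2 to light chain ratios are higher in L-OHP+FUC, the Slc7a11 to Slc3a2 ratios overlap, and the Slc38a2 to Slc38a1 ratios of 2.12 to 2.45 in L-OHP+FUC lie below those of 3.64 to 4.14 in L-OHP. The log2 difference of the Slc3a2 to light chain ratios, 0.22, falls to 0.09 after quantile normalization or GC and length correction.

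Of the 2 arginine importers, Slc7a1 rose. Slc7a1 (ENSMUSG00000041313, chromosome 5, 148327410 to 148399904, minus strand) had 10.9, 10.2 and 10.3 FPKM in L-OHP+FUC, against 7.21, 8.67 and 7.02 FPKM in L-OHP. The L-OHP+FUC libraries lay close together and above all L-OHP libraries. The mean was 10.5 ± 0.405 FPKM in L-OHP+FUC and 7.64 ± 0.905 FPKM in L-OHP, a log2 fold change of 0.41 (SE 0.10, 95% interval 0.18 to 0.65, adjusted p = 0.0264). The call held without L-OHP replicate 2 and was lost with any other single library left out, over a range of adjusted p from 0.0148 to 0.0901.

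Slc7a2 (ENSMUSG00000031596, chromosome 8, 40862396 to 40922308, plus strand), the arginine importer known for its induction in activated macrophages, was the least abundant of the 9 genes. It had 0.851, 0.745 and 1.26 FPKM in L-OHP+FUC, against 0.961, 0.773 and 0.655 FPKM in L-OHP. The groups overlapped, with a log2 fold change of 0.11 (SE 0.13, 95% interval -0.20 to 0.43, adjusted p = 0.546). Corrected for GC content and length, the log2 fold change was 0.47 (SE 0.12, adjusted p = 0.0353), at a GC content of 43.9%. Slc7a1 exceeded Slc7a2 by 12.8-fold, 13.7-fold and 8.17-fold in the L-OHP+FUC libraries, against 7.5-fold, 11.2-fold and 10.7-fold in the L-OHP libraries, a ratio chosen after the values were seen. Slc7a2 overlaps the non-coding gene Gm26584 of the opposite strand, which was not analysed here.

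Slc38a2 fell, with the smallest spread between replicates relative to its change among the 5 called genes. Slc38a2 (ENSMUSG00000022462, chromosome 15, 96687392 to 96699730, minus strand), a glutamine and alanine importer known for its induction when amino acids are withdrawn, had 14.0, 13.0 and 14.4 FPKM in L-OHP+FUC, against 22.6, 22.0 and 22.3 FPKM in L-OHP. The groups were far apart. The mean was 13.8 ± 0.745 FPKM in L-OHP+FUC and 22.3 ± 0.275 FPKM in L-OHP, a log2 fold change of -0.66 (SE 0.08, 95% interval -0.84 to -0.47, adjusted p = 0.0050). The call held with each library left out in turn (adjusted p 0.0097 to 0.0303). Corrected for GC content and length, the log2 fold change was -0.39 (SE 0.08, adjusted p = 0.0189), at a GC content of 44.7%. Its share of the summed FPKM of the 9 genes was 3.44% ± 0.270 in L-OHP+FUC and 8.21% ± 0.761 in L-OHP.

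Slc38a1 (ENSMUSG00000023169), which lies near Slc38a2 on chromosome 15 (96571418 to 96642913, minus strand) and has a like function, did not pass the test. It had 5.72, 6.12 and 6.53 FPKM in L-OHP+FUC, against 5.45, 5.93 and 6.13 FPKM in L-OHP. The groups overlapped, with a log2 fold change of 0.06 (SE 0.09, 95% interval -0.15 to 0.27, adjusted p = 0.653), and 0.30 (SE 0.07, adjusted p = 0.0259) after GC and length correction. Slc38a2 exceeded Slc38a1 by 2.45-fold, 2.12-fold and 2.21-fold in L-OHP+FUC, against 4.14-fold, 3.71-fold and 3.64-fold in L-OHP, another ratio chosen after the values were seen. The ratios of the groups lay apart.

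Slc1a5 (ENSMUSG00000001918, chromosome 7, 16781340 to 16798274, plus strand), the glutamine exchanger, had 6.48, 5.72 and 6.99 FPKM in L-OHP+FUC, against 4.95, 5.88 and 5.87 FPKM in L-OHP. The groups overlapped through L-OHP+FUC replicate 2, with a log2 fold change of 0.17 (SE 0.11, 95% interval -0.09 to 0.43, adjusted p = 0.272). Corrected for GC content and length, the log2 fold change was 0.02 (adjusted p = 0.893).

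**Figure D3:**
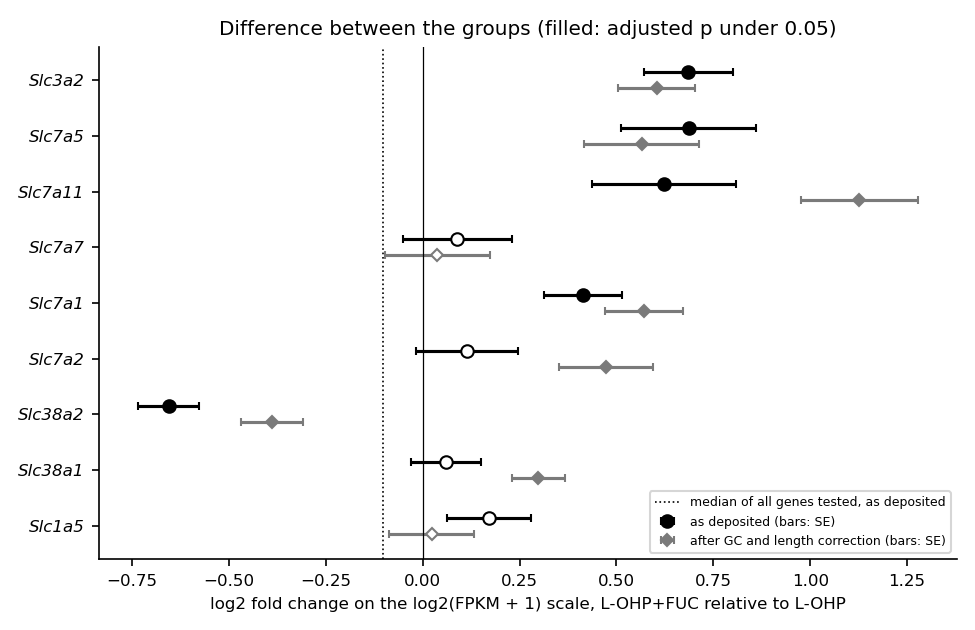
Log2 fold change on the log2(FPKM + 1) scale, L-OHP+FUC relative to L-OHP (x axis), for the 9 genes (y axis), as deposited (black circles) and after GC and length correction (grey diamonds), with bars for the SE and filled symbols for an adjusted p under 0.05. Slc3a2, Slc7a5, Slc7a11, Slc7a1 and Slc38a2 are filled in both, Slc7a2 and Slc38a1 are filled after the correction, and the correction moves Slc7a11 to 1.13; the dotted line is the median of all genes tested, -0.10.

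The order of the levels differed between the groups mainly through Slc38a2. In L-OHP+FUC the means ran from Slc3a2 through Slc7a5, Slc7a11, Slc7a7, Slc38a2, Slc7a1, Slc1a5 and Slc38a1 to Slc7a2, and the ranges overlapped for the neighbours Slc7a5 and Slc7a11, Slc7a7 and Slc38a2, and Slc1a5 and Slc38a1. In L-OHP the order was Slc3a2, Slc38a2, Slc7a5, Slc7a7, Slc7a11, Slc7a1, Slc38a1, Slc1a5 and Slc7a2, and the ranges overlapped for Slc7a5 and Slc7a7, Slc7a7 and Slc7a11, and Slc38a1 and Slc1a5. Slc38a2 was thus the fifth by mean in L-OHP+FUC and the second in L-OHP. The other neighbours had separate ranges.

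The genes whose levels ran most closely with a transporter were sought among 5394 protein-coding genes with a mean of at least 5 FPKM. The measure was the Pearson correlation of log2(FPKM + 1) over the 6 libraries, which differ in depth and in their correlation with GC content. Slc3a2 ran most closely with Il3ra, the interleukin-3 receptor alpha chain (r = 0.9997), then with Arf4, a small GTPase of vesicle traffic (0.997), and Eif3b, a subunit of a translation initiation factor (0.996). For Slc7a11 they were Cnot11, a subunit of a deadenylase complex (0.985), Agpat1, an enzyme of phospholipid synthesis (0.975), and Rab6a, a small GTPase of the Golgi (0.971). For Slc7a2 they were Elovl1, a fatty acid elongase (0.992), Dync1li1, a dynein light intermediate chain (0.950), and Uri1, a prefoldin-like protein (0.947). The 3 genes named for Slc3a2 were called higher, at log2 fold changes of 0.61, 0.27 and 0.59. Those named for Slc7a11 did not pass the test, at 0.06 (adjusted p = 0.619), 0.73 (0.0504) and 0.21 (0.200). Cnot11 was nearly level, at 6.38 to 6.85 FPKM over the libraries. Those named for Slc7a2 did not pass either, at 0.18, 0.10 and 0.04. With 6 libraries in 2 groups, correlations of this size are a description of these libraries.

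Among 38 other plasma membrane amino acid transporter genes, 11 were tested and the other 27 were below the minimum. Of the 11, 3 were called higher, 1 was called lower and 7 did not pass, beside 7.67% of all genes higher and 19.3% lower, with a median log2 fold change of 0.36, and 6 were called higher without L-OHP replicate 2. Slc16a10 (TAT1), a transporter of aromatic amino acids, rose to 36.2 ± 2.15 FPKM in L-OHP+FUC, against 21.4 ± 3.44 FPKM in L-OHP (log2 fold change 0.74, adjusted p = 0.0105). Slc6a9 (GlyT1), a glycine importer, rose to 4.26 ± 0.575 FPKM in L-OHP+FUC, against 1.64 ± 0.617 FPKM in L-OHP (1.01, adjusted p = 0.0113). Slc38a6, a relative of Slc38a2, fell to 3.04 ± 0.196 FPKM in L-OHP+FUC, against 5.42 ± 0.395 FPKM in L-OHP (-0.67, adjusted p = 0.0070). These 3 calls held with each library left out in turn. Slc38a10, a further relative, was at 20.9 ± 0.801 FPKM in L-OHP+FUC and 16.1 ± 0.254 FPKM in L-OHP (0.36, adjusted p = 0.0180), a call lost without L-OHP+FUC replicate 1 or 2 or L-OHP replicate 1 (adjusted p up to 0.0790). Slc43a2 (LAT4), a facilitator of neutral amino acids, was at 63.7, 70.1 and 62.3 FPKM in L-OHP+FUC, against 49.6, 22.2 and 47.7 FPKM in L-OHP (0.78, adjusted p = 0.0878). L-OHP replicate 2 lay far below its group, and Slc43a2 did not pass.

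At the lysosome, where transporters release amino acids from digested protein, 7 genes were tested and 1 was called in each direction, beside 7.67% of all genes higher and 19.3% lower, with a median of -0.01. Neither call held after GC and length correction. Slc38a9, an arginine sensor of the lysosomal membrane, had 1.52 ± 0.0815 FPKM in L-OHP+FUC and 2.38 ± 0.0834 FPKM in L-OHP (log2 fold change -0.43, adjusted p = 0.0159). That value was -0.06 (adjusted p = 0.722) after GC and length correction, and the call was lost without L-OHP+FUC replicate 2 or L-OHP replicate 1. Slc38a7, a lysosomal glutamine exporter, had 28.4 ± 2.16 FPKM in L-OHP+FUC and 22.7 ± 1.32 FPKM in L-OHP (0.31, adjusted p = 0.0474), lost with 5 of the 6 libraries left out in turn and after GC and length correction (adjusted p = 0.0907). Slc15a3, a peptide and histidine transporter, did not pass (0.51, adjusted p = 0.143).

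Genes of the pathways around these transporters were counted from lists that exclude the 9. Of 33 tested NRF2 target genes, 23 were called higher and 0 lower, with a median log2 fold change of 0.61. Over all genes tested, 7.67% were called higher and 19.3% lower, with a median of -0.10. The number of NRF2 target genes called higher was 15 to 22 with 1 library left out, the fewest (15) without L-OHP+FUC replicate 2. Srxn1 (sulfiredoxin) rose to 329.9 ± 23.3 FPKM in L-OHP+FUC, against 143 ± 10.7 FPKM in L-OHP (1.2, adjusted p = 0.0034). Abcc1, an exporter of glutathione conjugates, rose by 0.90 (adjusted p = 0.0034), and Txnrd1, a thioredoxin reductase, rose by 0.68 (adjusted p = 0.0046). Of 18 tested genes of glutathione synthesis and use, 5 of which stand in the NRF2 list too, 6 were called higher and 0 lower, with a median of 0.41. Gsr (glutathione reductase) rose by 0.83 (adjusted p = 0.0070), Gss (glutathione synthetase) by 0.71 (adjusted p = 0.0118) and Gsto1, a glutathione transferase, by 0.44 (adjusted p = 0.0122), the last lost without L-OHP+FUC replicate 2 (adjusted p = 0.0561). Between 2 and 5 of the list were higher with 1 library left out, the fewest without L-OHP+FUC replicate 2 and 3 of them without L-OHP replicate 1.

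Of 31 tested ATF4 target genes, 10 were called higher and 3 lower, with a median of 0.35. These counts stand beside 7.67% of all genes called higher and 19.3% called lower, with a median of -0.10. After GC and length correction, 10 were called higher and 4 lower, beside 11.5% and 11.9% of all genes. The added lower call was Ddit4 (-0.83, adjusted p = 0.0428). With the replicate number also in that fit, 7 were called higher and 2 lower. Asns (asparagine synthetase) rose to 41.7, 41.9 and 41.9 FPKM in L-OHP+FUC, against 23.1, 22.8 and 24.2 FPKM in L-OHP (0.81, adjusted p = 0.0034). Gars, the glycyl-tRNA synthetase, rose by 0.67 (adjusted p = 0.0047), and Shmt2, which makes glycine and one-carbon units in mitochondria, rose by 0.90 (adjusted p = 0.0050). The 3 lower genes, named after their values were seen, encode regulators of transcription: Ddit3 (CHOP, -0.98, adjusted p = 0.0063), Cebpg (-0.62, adjusted p = 0.0091, and -0.37 after GC and length correction) and Nupr1 (-0.97, adjusted p = 0.0237). Atf4 itself had 158 ± 14.3 FPKM in L-OHP+FUC and 137 ± 40.1 FPKM in L-OHP and did not pass (0.25, adjusted p = 0.443). Without L-OHP+FUC replicate 1 or 2, 5 of the list were called higher, and 6 without L-OHP replicate 1; over all libraries left out the number was 5 to 14.

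Of 21 tested genes of arginine and glutamine use, 7 were called higher and 1 lower, beside 7.67% of all genes higher and 19.3% lower. The median was 0.25, and 5 to 8 were higher with 1 library left out. Besides Asns, which is on both lists, Cad, the first enzyme complex of pyrimidine synthesis and a consumer of glutamine, rose to 4.81 ± 0.256 FPKM in L-OHP+FUC, against 2.86 ± 0.158 FPKM in L-OHP (0.59, adjusted p = 0.0081). Sat1, which acetylates the arginine-derived polyamines for breakdown, fell to 36.2 ± 1.12 FPKM in L-OHP+FUC, against 70.1 ± 8.0 FPKM in L-OHP (-0.93, adjusted p = 0.0044). Others of the higher genes, named after their values were seen, were Ass1, which remakes arginine from citrulline (0.69, adjusted p = 0.0107), Odc1, the first enzyme of polyamine synthesis (0.76, adjusted p = 0.0124), and Arg2, the mitochondrial arginase (0.81, adjusted p = 0.0328). Nos2, the inducible nitric oxide synthase, ranged widely at 5.33, 3.91 and 5.36 FPKM in L-OHP+FUC, against 4.96, 6.91 and 1.79 FPKM in L-OHP (0.20, adjusted p = 0.713).

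Of 35 tested genes through which amino acids are sensed by the growth kinase mTORC1, 2 were called higher and 8 lower, with a median of -0.06. Flcn (folliculin), a regulator of the Rag GTPases, fell to 10.9 ± 0.319 FPKM in L-OHP+FUC, against 25.6 ± 4.92 FPKM in L-OHP (-1.15, adjusted p = 0.0053). Bmt2, a sensor of S-adenosylmethionine, fell by 0.86 (adjusted p = 0.0063; by 0.48 after GC and length correction), and Tsc1, part of the complex that restrains mTORC1, fell by 0.68 (adjusted p = 0.0085). The 2 higher genes, named after their values were seen, were Castor1, an arginine sensor (0.42, adjusted p = 0.0202, and 0.0874 after GC and length correction), and Lamtor1, an anchor of the Rag GTPases (0.31, adjusted p = 0.0359). The number lower was 5 without L-OHP+FUC replicate 1, L-OHP replicate 1 or L-OHP replicate 3, 4 without L-OHP+FUC replicate 2 and 6 otherwise. Neither higher call held without L-OHP+FUC replicate 1 or 2 or L-OHP replicate 1. The 2 higher and 8 lower genes stand beside 7.67% of all genes called higher and 19.3% called lower, with a median of -0.10. After GC and length correction, 3 of the list were called higher and 6 lower, beside 11.5% and 11.9% of all genes. Higher and lower calls were 4 and 6 after median ratio rescaling, and 5 and 7 after quantile normalization.

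Of 14 listed kinases and regulators upstream of these responses, 13 were tested, and all 13 are given. Of these, 1 was called higher and 3 lower, beside 7.67% of all genes higher and 19.3% lower. The median log2 fold change was -0.07, beside -0.10 for all genes tested. With 1 library left out, 0 to 2 were called higher and 2 to 4 lower. Eif2ak2 (PKR), a kinase activated by double-stranded RNA, fell to 10.4 ± 3.05 FPKM in L-OHP+FUC, against 27.1 ± 2.38 FPKM in L-OHP (-1.34, adjusted p = 0.0070). Mdm2, the ubiquitin ligase and target of p53, fell by 0.84 (adjusted p = 0.0070). Eif2ak4 (GCN2), the kinase that senses uncharged tRNA, had 1.68 ± 0.183 FPKM in L-OHP+FUC and 2.90 ± 0.561 FPKM in L-OHP (-0.54, adjusted p = 0.0283), a call lost without L-OHP+FUC replicate 1 or 2 or L-OHP replicate 1 or 3 and after GC and length correction (adjusted p = 0.0526). Myc, a growth-promoting transcription factor, had 2.71 ± 0.313 FPKM in L-OHP+FUC and 1.51 ± 0.230 FPKM in L-OHP (0.56, adjusted p = 0.0166), lost without L-OHP+FUC replicate 2 (adjusted p = 0.0668). Those that did not pass were Ppp1r15a (0.58, adjusted p = 0.0537), Bach1 (-0.35, adjusted p = 0.0642), Nfe2l2, the gene of NRF2 (-0.31, adjusted p = 0.134), Eif2ak3, Ppp1r15b, Eif2ak1, Trp53, Eif2s1 and Keap1, the last 6 at -0.24 to 0.12.

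**Figure D4:**
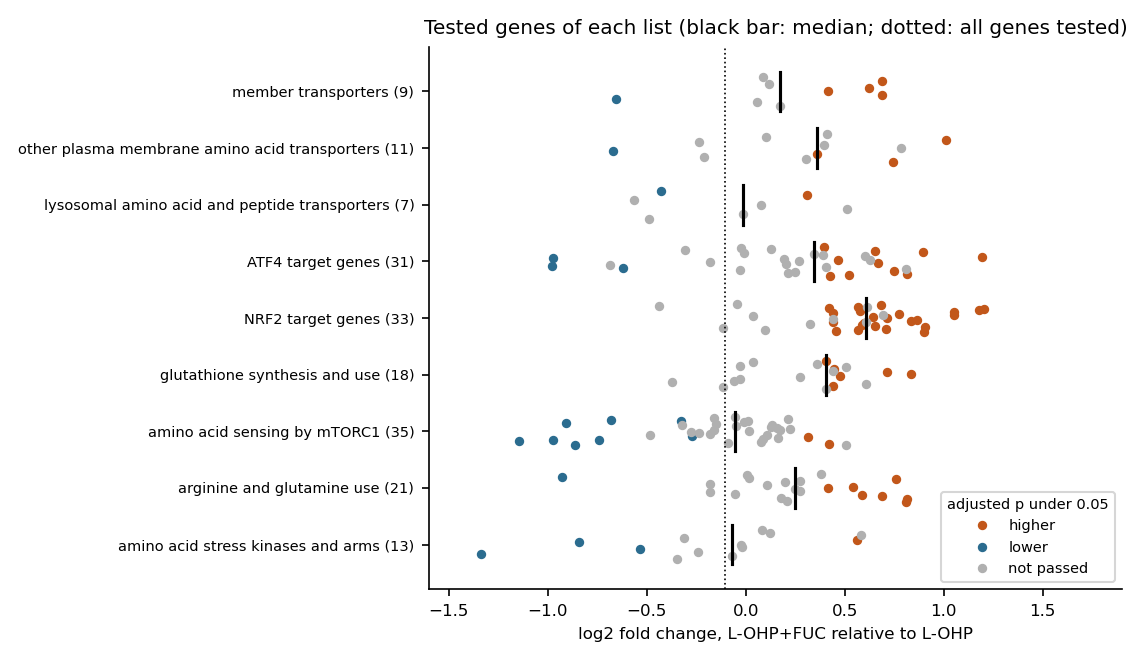
Log2 fold change, L-OHP+FUC relative to L-OHP (x axis), of each tested gene in the 9 transporters and 8 related lists (y axis, number tested in brackets), coloured by whether the adjusted p was under 0.05, with black bars for medians and a dotted line for the median of all genes tested. The NRF2 target genes have the highest median of these lists, 0.61, and no gene called lower, and the 9 transporters have a median of 0.17.

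In the authors' deposited table the same 5 transporters had a q-value under 0.05, with folds of 1.61 for Slc3a2, 1.62 for Slc7a5, 1.61 for Slc7a11, 1.37 for Slc7a1 and 0.619 for Slc38a2. In the authors' deposited table the q-values of Slc7a7, Slc7a2, Slc38a1 and Slc1a5 were 0.485, 0.370, 0.399 and 0.220. The authors' deposited table marks 0 of the 9 as significant, a mark that begins at a fold of 2.

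**Figure D5:**
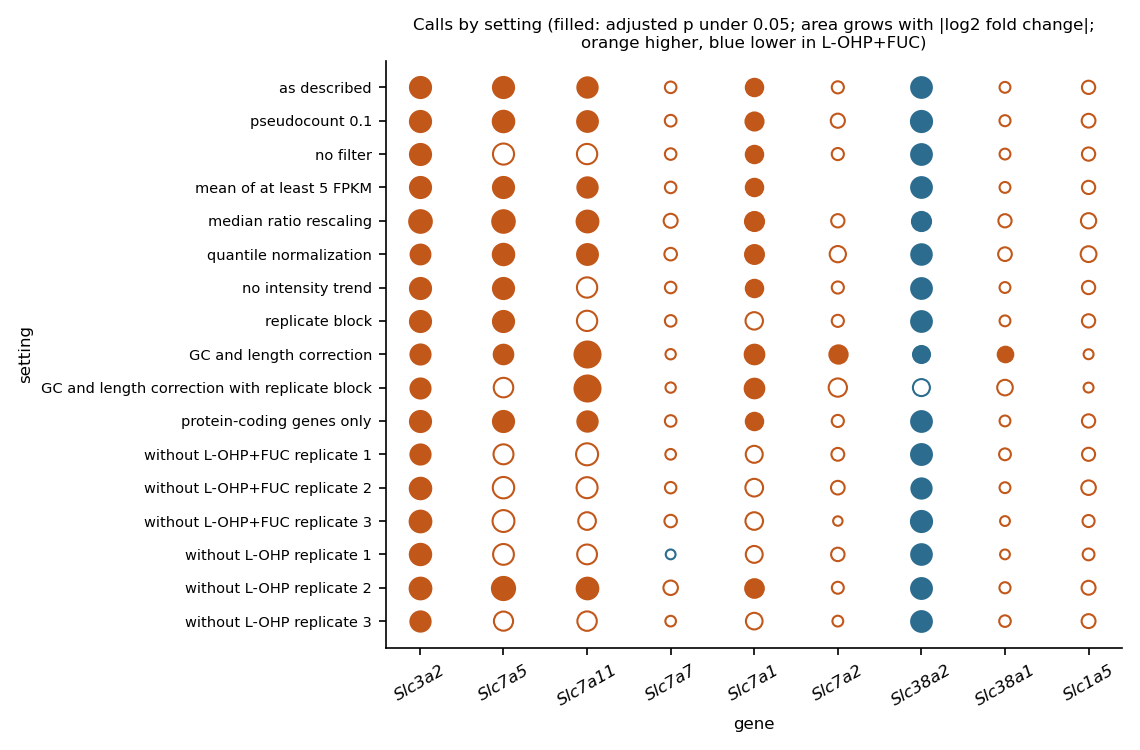
Calls for each of the 9 genes (x axis) as described and under each alternative setting (y axis), filled where the adjusted p was under 0.05, orange where higher and blue where lower in L-OHP+FUC, with area growing with the size of the log2 fold change. Slc3a2 is filled under every setting drawn, Slc38a2 under all but the GC and length correction with replicate block, and Slc7a5, Slc7a11 and Slc7a1 lose the call when most single libraries are left out; Slc7a2 has no symbol at a mean of at least 5 FPKM, where it was not tested.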

How the data were processed

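Ribosomal RNA was removed from total RNA of mouse BMDM with biotinylated probes, and the rest was reverse transcribed from random primers, per the labels' protocols. Per the submitters' processing notes, bcl2fastq 2.0, HISAT2, StringTie, DESeq2, limma and the build mm10 were used, without their roles. Not given in the sources used here are the annotation, the counting and its use of strand. Per the file headers, the authors deposited FPKM for each gene and library; they wrote 0.0001 for 0, which was set to 0 here. The authors also deposited for each gene a q-value, a p-value, a fold of mean FPKM and its log2, per the file headers, from a tool that is not stated. Steps between low FPKM gave the implied depth, but between 35.6% and 41.1% of these values came within 0.03 reads of a whole number, so counts were not recovered and no count test was run.

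Groups follow the labels, L-OHP+FUC and L-OHP with 3 samples each. No pair of libraries shared an identical non-zero value among tested genes. limma 3.58.1 (R 4.3.3) was fitted to log2(FPKM + 1) of 12084 genes with a single term for group, moderated by empirical Bayes with a trend; tests were two-sided with Benjamini-Hochberg adjustment, and the code was tested on simulated data. A positive fold change is higher in L-OHP+FUC, and this scale understates the change of low genes such as Slc7a2. Where 254 rows shared a symbol, the higher mean was used. Sums and ratios had an exact two-sided permutation test. Coordinates and GC content are from GENCODE M21 (GRCm38), matched by gene ID for 99.5% of rows, and promoters are from RefSeq. Alternatives were the pseudocount, filters, rescalings, no trend, the replicate block, protein-coding genes only, each library left out, and a loess correction (span 0.3, 4 robust iterations) for GC content and length. The 9 genes, the lists and the settings were chosen with earlier results of these data known. Named were the 9, and the 6 other transporters and 3 genes per further list with the smallest p. Also named were all tested genes of the list of kinases, and the 3 genes most like Slc3a2, Slc7a11 and Slc7a2.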

Additional observations from a re-analysis of the deposited data

How the results depend on the processing

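Over the 9 genes and 16 alternative settings, 118 of 143 log2 fold changes kept their direction and their side of the threshold, 22 lost the call, 2 gained it and 1 turned: Slc7a7 was -0.018 without L-OHP replicate 1, in a range of -0.018 to 0.23 with a library left out. Only the 5 genes called as described could lose a call. Slc7a5, Slc7a11 and Slc7a1 each lost it with 5 of the 6 libraries left out in turn. Calls among the 9 were 3 with no filter (2 higher; Slc7a5 and Slc7a11 lost), 3 with the replicate block and 3 with GC and length correction and the block (0 lower), and 2 to 5 (1 to 4 higher) with a library left out. Slc7a11 was also lost without the intensity trend (adjusted p = 0.0505). Of the other transporters, 2 were called (0 lower) at a mean of at least 5 FPKM, 2 were lower with no filter, and 3 to 7 (2 to 6 higher) were called with a library left out.

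Over all genes, 2081 were called with no filter (561 higher, 1520 lower), 1720 at a mean of at least 5 FPKM (966 lower) and 1101 to 3377 (266 to 1121 higher, 835 to 2256 lower) with a library left out. Higher and lower calls were 1581 and 1680 after median ratio rescaling, 1565 and 1359 after quantile normalization, and 1390 and 1437 after GC and length correction, against 927 and 2335 as described. Quantile normalization and the correction moved the median of all genes by 0.14 and 0.11 (log2); the cause was not tested. The Slc7a11 to Slc3a2 ratio was 0.12 after quantile normalization, 0.59 after the correction, and -0.28 to 0.20 with a library left out.

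The values gave no sign that the replicate numbers pair the samples, though this cannot show how the samples were prepared. Deviations of same-numbered libraries correlated at -0.04, -0.07 and 0.08, and not every library correlated best with its own number. With the replicate block, 554 genes were higher, and Slc3a2, Slc7a5 and Slc38a2 were called among the 9 (2 higher), while Slc7a1 (adjusted p = 0.0584) and Slc7a11 (0.0761) were not. With the correction and the block, 1465 genes were called (809 lower), and Slc7a5 (0.0624), Slc38a2 (0.0510), Slc7a2 (0.0740) and Slc38a1 (0.0781) were not. Genes near 1 FPKM, such as Slc7a2, rest on few fragments, and no counting error could be computed.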
